A study of Arabidopsis thaliana with 6 samples.

Results

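The genes described here are 35 Arabidopsis thaliana loci that drive or carry out cell division, taken by locus code from the 27978 rows of a count table. They are 8 B-type, 7 A-type and 7 D-type cyclins, the cyclin-dependent kinase (CDK) gene CDKA;1, 4 B-type CDK genes, 2 CDC20 genes, 3 Aurora kinase genes, and 3 genes of cytokinesis (KNOLLE, HINKEL and MAP65-3). All 35 passed the filter on low counts, with between 34 reads (CYCA2;1, control replicate 1) and 2784 reads (CYCD3;2, IAA replicate 1) per library. RNA-seq reads were counted in wild-type Col plants of 3 groups with 2 libraries each: melatonin (MT) at 10 nM, the auxin indole-3-acetic acid (IAA) at 1 nM, and a control with 0.1% ethanol, the solvent of the MT and IAA stocks. Seedlings were 4 days old when moved to these plates, and the sample titles put all 6 libraries at day 7. The series title names root growth under melatonin and its dependence on IAA as the question. The labels give seedlings as the tissue and the series' text gives rosette leaves. The control columns are named 72 h although their titles say day 7, so a difference in age cannot be told apart from a difference in treatment wherever a group is set against control. No label says whether replicates were grown separately, so p-values measure the spread between these libraries, which may be technical.

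Cell division in plants is paced by CDKs that act when bound to a cyclin. D-type cyclins are known for linking growth signals such as hormones and sugar to the start of the cycle in G1, A-type cyclins act from S phase onward, and B-type cyclins and B-type CDKs act at the passage from G2 into mitosis. In Arabidopsis, transcripts of the G2/M genes accumulate for a short part of the cycle under MYB3R transcription factors, which bind the mitosis-specific activator element, whereas CDKA;1 is transcribed throughout the cycle. In seedlings these genes are used where cells divide, in root and shoot meristems, in lateral root primordia and in young leaves. In bulk RNA, fewer dividing cells and less transcript per dividing cell cannot be told apart.

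Promoters are shown because many G2/M genes, though not all, carry a known promoter element. The core of the mitosis-specific activator element, AACGG, was searched on both strands from 250 bases before to 50 bases after the annotated start of each gene, in the TAIR10.1 genome with the RefSeq annotation. It was present in 14 of the 20 G2/M promoters (B-type cyclins, B-type CDKs, CDC20, Aurora kinases and cytokinesis genes), against 24.7% of 27437 protein-coding promoters. It was also in 3 of the 7 A-type cyclin promoters and in 1 of the 7 D-type cyclin promoters, that of CYCD3;1. At least 2 copies stood in 10 of the 20 G2/M and 3 of the 7 A-type promoters, against 4.89% of all promoters. At least 3 copies stood in 8 of the 20 G2/M and 1 of the 7 A-type promoters, against 1.06% of all promoters. A match describes the letters in a window and is not a binding site. The bases just before the start are printed 5′ to 3′ on the gene's strand, with each AACGG or its reverse complement in capitals: 3 B-type cyclins with large differences between IAA and control, then CDC20.1, which had the lowest p of all members in that comparison, and CYCD1;1, the D-type cyclin with the largest difference.
CYCB1;2 (TAIR10.1 chr5:1861704-1861853, minus strand): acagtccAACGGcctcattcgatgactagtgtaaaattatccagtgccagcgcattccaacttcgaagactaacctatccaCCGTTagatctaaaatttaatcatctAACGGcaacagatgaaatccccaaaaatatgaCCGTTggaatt
CYCB1;3 (TAIR10.1 chr3:3627274-3627423, minus strand): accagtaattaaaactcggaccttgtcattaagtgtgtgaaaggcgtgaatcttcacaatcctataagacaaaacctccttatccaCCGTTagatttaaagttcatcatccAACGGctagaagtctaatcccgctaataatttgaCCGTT
CYCB2;3 (TAIR10.1 chr1:7137829-7137978, minus strand): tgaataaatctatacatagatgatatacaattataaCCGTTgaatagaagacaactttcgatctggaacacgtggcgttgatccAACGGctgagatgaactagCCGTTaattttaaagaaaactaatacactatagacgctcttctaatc
CDC20.1 (TAIR10.1 chr4:16046938-16047087, minus strand): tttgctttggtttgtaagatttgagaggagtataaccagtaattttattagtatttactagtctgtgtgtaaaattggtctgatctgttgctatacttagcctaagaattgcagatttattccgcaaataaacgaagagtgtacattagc
CYCD1;1 (TAIR10.1 chr1:26439406-26439555, plus strand): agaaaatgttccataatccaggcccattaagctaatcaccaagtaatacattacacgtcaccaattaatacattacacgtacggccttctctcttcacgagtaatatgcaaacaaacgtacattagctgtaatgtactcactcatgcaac

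Within these 150 bases CYCB1;2 held 4 copies and CYCB1;3 and CYCB2;3 held 3 each, while CDC20.1 and CYCD1;1 held 0. CYCB1;4 is not printed, although its log2 fold change with IAA against control was 0.66. Its 2 matches stood at bases 1 and 28, past the start, so none lay in the 150 bases before it. With IAA against control the median log2 fold change was 0.50 for the 8 G2/M genes with 3 or more copies and 0.48 for the 6 with no copy. Over all members it was 0.54 for the 9 with 3 or more copies and 0.43 for the 17 with none. With MT against control the G2/M medians were 0.19 and 0.04. With MT against IAA the G2/M medians were -0.40 and -0.51. With IAA against control the median was 0.05 over the 244 tested genes of the whole table with 3 or more copies, and 0.01 over the 15366 with none. A second motif, the E2F site in its 4 forms TTTCCCGC, TTTCGCGC, TTTGCCGC and TTTGGCGC, was found in 1 of the 35 windows, that of CYCD3;3, and in 1.76% of all promoters. The plot of motif positions shows both.

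**Figure D1:**
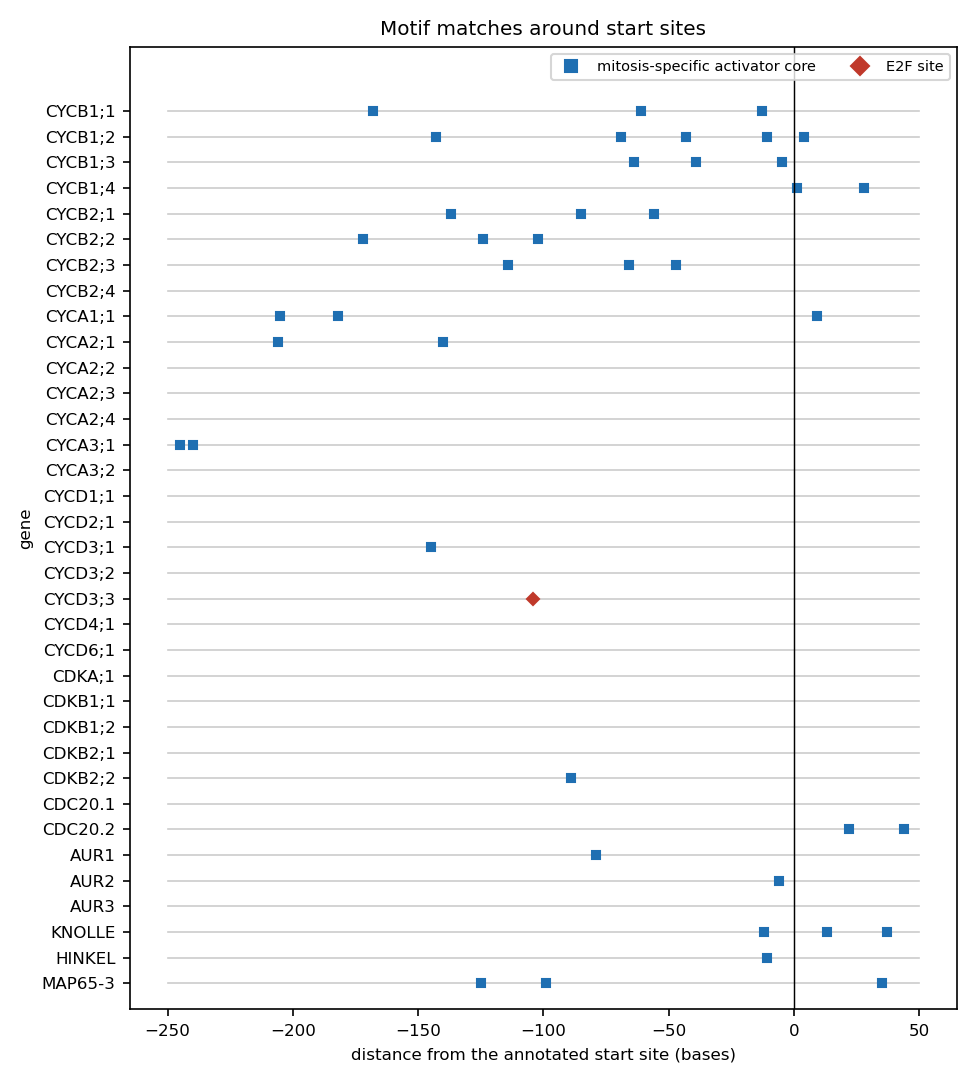
Each row is 1 of the 35 genes and the x axis is the distance in bases from its annotated start site. Squares are matches to the mitosis-specific activator core and the diamond is the E2F site, on either strand. Matches stand in 7 of 8 B-type cyclins and in 1 of 4 B-type CDKs.

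Per kb of exon, CDKA;1, the CDK of all phases, and CYCD3;2, a G1 cyclin, were the most abundant of the 35 transcripts in each group, at means of 25.8 and 24.1 CPM (reads scaled to library size) per kb over the 6 libraries. KNOLLE, the syntaxin of the forming cell plate, came next at 12.5 CPM per kb, followed by the G1 cyclins CYCD3;3 (11.0), CYCD2;1 (10.0) and CYCD3;1 (9.66). The lowest were CYCA2;1 at 0.497 and CYCB2;1 at 0.774 CPM per kb. The D-type cyclins spanned much of the range, with CYCD4;1 at 1.05 CPM per kb. CDC20.1 (9.14) and CDKB2;1 (9.09) were next to each other in this order, which is that of the mean over all libraries. Within the IAA group CDC20.1 (11.7) stood level with CYCD3;3 (11.6).

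**Figure D2:**
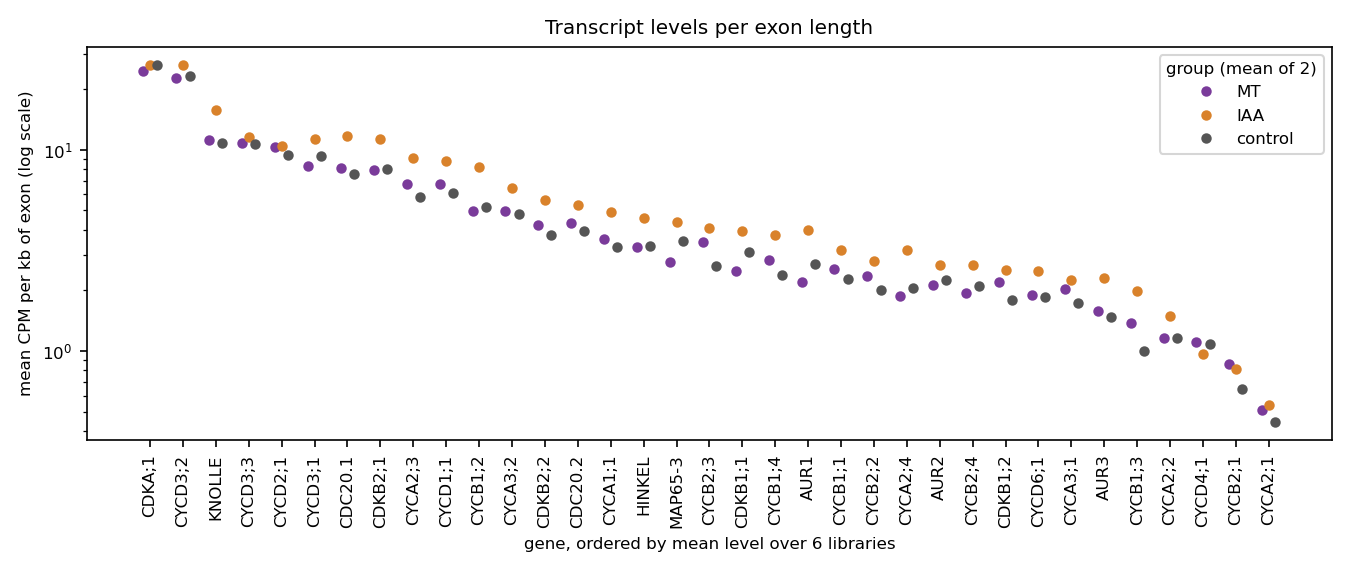
The y axis, on a log scale, is the group mean of 2 libraries in CPM per kb of exon for each gene on the x axis, with MT, IAA and control side by side. CDKA;1 and CYCD3;2 stand highest, and the IAA point lies above the MT and control points for most genes.

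With IAA against control no member passed the threshold. Both IAA libraries lay above both control libraries in 18 of the 20 G2/M genes, the exceptions being CYCB2;1 and CDKB1;2, where 23.6% of all genes were separated that way. The largest difference was that of CYCB1;3 (AT3G11520, TAIR10.1 chr3:3625286-3627273), a mitotic cyclin, at 2.68 and 3.87 CPM with IAA and 1.40 and 1.92 CPM in control, a 1.97-fold higher level (log2 fold change 0.98 ± 0.29 SE, adjusted p = 0.252). CYCB1;3 had 73 to 174 reads per library. CDC20.1 (AT4G33270), which helps the anaphase-promoting complex mark cyclins for destruction, came closest to the threshold, at 23.1 and 25.9 CPM with IAA and 15.4 and 16.5 CPM in control (0.62 ± 0.12, adjusted p = 0.061). In neither gene did the groups overlap. The edgeR quasi-likelihood test, adjusted over all 21267 genes by Benjamini-Hochberg, called 0 of 35 members, where it called 0.701% of all genes (0.583% higher and 0.118% lower). At an unadjusted p under 0.05 there were 19 members, all higher with IAA, where 6.71% of all genes were higher and 4.27% lower by that rule. DESeq2 called 2 members, CDC20.1 (adjusted p = 0.00136) and CYCA2;3 (adjusted p = 0.0208), where it called 2.23% of all genes. With no filter on low counts edgeR called 1 member, CDC20.1 (adjusted p = 0.0255), and 1.11% of all genes. Both IAA libraries lay above both control libraries in 28 of the 35 members, where 23.6% of all genes did so. Estimates were above 0 for 33 members, where 53.6% of all genes were above 0.

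The 8 B-type cyclins, which bind CDKs to start mitosis, had positive values throughout, from 0.33 to 0.98 with a median log2 fold change of 0.54. CYCB1;4 (AT2G26760) read 5.58 and 8.24 CPM with IAA and 4.31 and 4.38 CPM in control (0.66 ± 0.21, adjusted p = 0.274). CYCB1;2 (AT5G06150) read 12.5 and 17.4 CPM with IAA and 8.57 and 10.4 CPM in control (0.65 ± 0.17, adjusted p = 0.192). In both genes the IAA libraries lay above both control libraries, with replicate 2 the higher. CYCB2;3 (AT1G20610) read 7.37 and 9.04 CPM with IAA and 5.56 and 5.10 CPM in control (0.62 ± 0.17, adjusted p = 0.214). CYCB1;1 (AT4G37490), often used as a marker of dividing cells, had a smaller difference, at 4.50 and 5.84 CPM with IAA and 3.43 and 4.02 CPM in control (0.47 ± 0.21). CYCB2;1 was the 1 B-type cyclin whose groups overlapped, at 1.56 and 1.14 CPM with IAA and 0.997 and 1.16 CPM in control.

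The kinase and cytokinesis genes also had estimates above 0. The 4 B-type CDK genes, kinases found in plants that act in G2 and mitosis, lay between 0.34 and 0.56, and CDKB2;1 read 14.1 and 16.9 CPM with IAA and 11.6 and 10.3 CPM in control (0.49 ± 0.14). CDKB1;2 was split within its group, at 2.31 and 5.39 CPM with IAA and 2.64 and 2.87 CPM in control, so that 1 IAA library lay below control and the other above it. The Aurora kinases, which phosphorylate histone H3 and help to place the division plane, were at 0.55 (AUR1), 0.24 (AUR2) and 0.65 (AUR3). AUR3 (AT2G45490) read 2.74 and 2.82 CPM with IAA and 1.86 and 1.69 CPM in control (0.65 ± 0.28, adjusted p = 0.447). KNOLLE (AT1G08560) read 17.9 and 25.5 CPM with IAA and 15.4 and 14.5 CPM in control (0.54 ± 0.15, adjusted p = 0.24). HINKEL, a kinesin of the phragmoplast, and MAP65-3, which crosslinks its microtubules, were at 0.46 ± 0.17 and 0.31 ± 0.14, and in all 3 cytokinesis genes the IAA libraries lay above control.

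CDC20.1 (TAIR10.1 chr4:16044169-16046937) and CDC20.2 (chr4:16041006-16043549) lie next to each other, and their coding sequences were 97.5% identical over 1344 aligned bases. How reads were shared between them is not given in the sources used here, so the split between the pair is uncertain. Their summed level was 27.7 and 23.3 CPM with MT, 33.0 and 36.6 CPM with IAA, and 22.5 and 24.7 CPM in control, with the IAA libraries above the other 4. CDKB2;1 and CDKB2;2 were 86.6% identical and CDKB1;1 and CDKB1;2 were 85.9% identical in coding sequence. Of the 35 genes 13 overlap another annotated gene, 12 of them on the other strand alone and 1, CYCD3;1, on the same strand. Among the 12 is CYCA2;3, which DESeq2 called with IAA against control and which overlaps AT1G15580. Whether reads of AT1G15580 were counted for CYCA2;3 was not tested. The use of strand in counting is not given in the sources used here.

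The 7 A-type cyclins had positive values from 0.28 to 0.64 with a median of 0.44. CYCA2;3 (AT1G15570), a cyclin that restrains endoreduplication, read 16.0 and 21.3 CPM with IAA and 11.9 and 11.9 CPM in control (0.64 ± 0.15, adjusted p = 0.142), with no overlap. CYCA2;4 read 4.66 and 6.89 CPM with IAA and 3.58 and 3.94 CPM in control (0.61 ± 0.22). CDKA;1 (AT3G48750) read 40.4 and 38.3 CPM with IAA and 39.0 and 40.0 CPM in control (0.00 ± 0.08, 95% interval -0.18 to 0.17), and its groups overlapped.

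**Figure D3:**
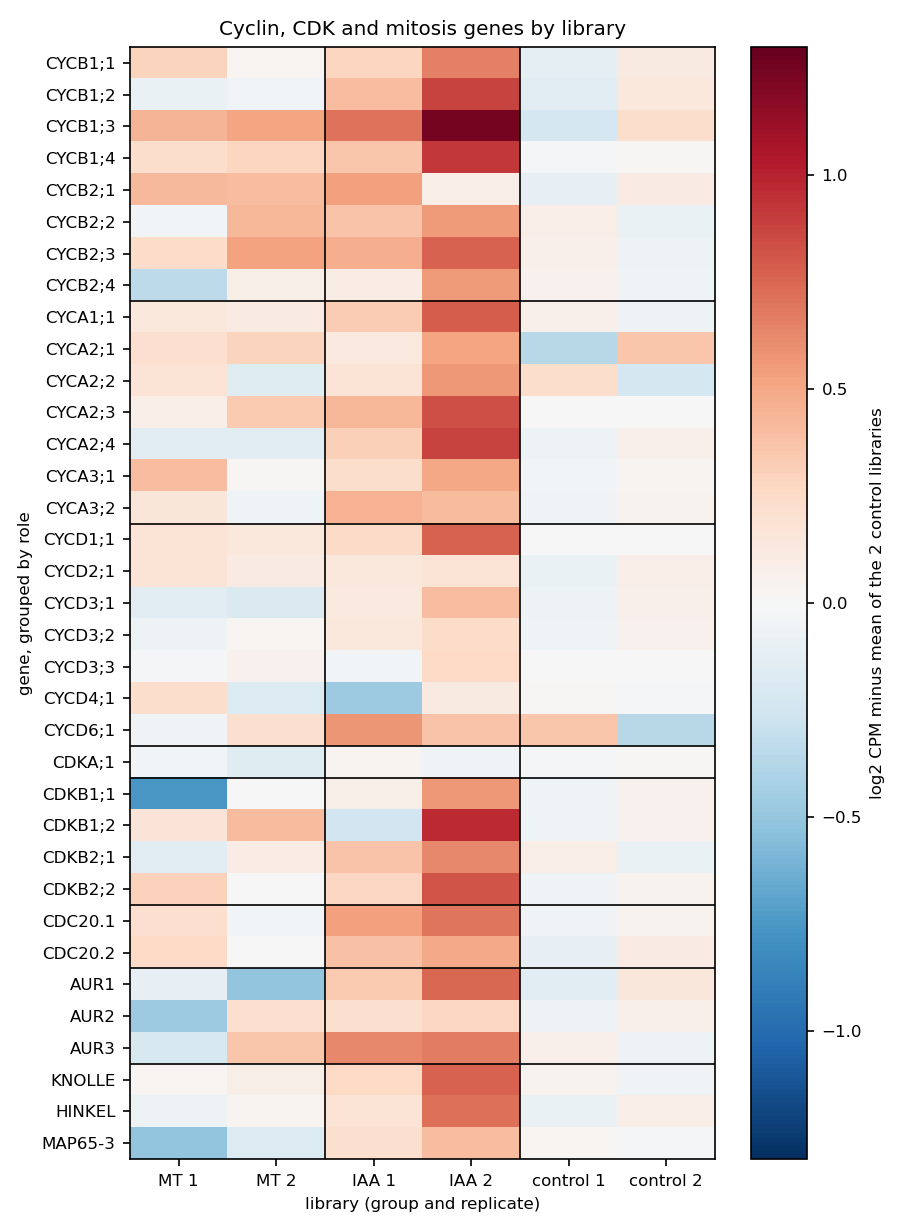
Rows are the 35 genes, grouped by role and separated by lines, and columns are the MT, IAA and control libraries. Colour is log2 CPM minus the mean of the 2 control libraries, with red above and blue below. The IAA replicate 2 column is the reddest, and that library held the highest value of 30 of the 35 genes.

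IAA replicate 2 held the highest value in 30 of 35 members (85.7%) and in 19 of 20 G2/M genes, against 21.0% of all genes tested. Relative to the control mean, the median G2/M gene stood at 0.35 and 0.68 (log2) in IAA replicates 1 and 2 and at -0.05 and 0.05 in the control replicates. Without IAA replicate 2 the median log2 fold change over all members was 0.26 in place of 0.46, and 5 members were at an unadjusted p under 0.05 in place of 19, where 7.22% of all genes were. That number was 10 without control replicate 1, where 6.67% of all genes were, and 12 without control replicate 2, where 8.1% were. The number of members called was 0 in each of these fits. Over all genes the median log2 fold change was 0.01. With RLE and upper-quartile factors it was 0.01 and 0.02, and the members' medians were 0.45 and 0.46.

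With MT against control, members had smaller estimates. Of the 35 members 23 had values above 0 and 12 below, with a median log2 fold change of 0.05, and edgeR called 0, where 1.89% of all genes were called (1.67% higher and 0.226% lower). The share of all genes above 0 was 49.3%. DESeq2 also called 0, where it called 3.87% of all genes. At an unadjusted p under 0.05 there was 1 member, MAP65-3 (AT5G51600), which read 6.72 and 8.48 CPM with MT and 9.74 and 9.46 CPM in control (-0.34 ± 0.15, adjusted p = 0.371), while 4.58% of all genes were lower and 8.67% higher by that rule. Both MT libraries lay above both control libraries in 9 members, where 22.5% of all genes did, and below them in 4, where 22.2% did. The first count was near the share of all genes and the second was below it.

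The B-type cyclins had the highest MT values, with 6 of 8 above 0 and a median of 0.23. CYCB1;3 read 2.22 and 2.34 CPM with MT and 1.40 and 1.92 CPM in control (0.46 ± 0.29, adjusted p = 0.562). CYCB2;3 read 6.27 and 7.63 CPM with MT and 5.56 and 5.10 CPM in control (0.38 ± 0.17, adjusted p = 0.396), and CYCB2;1 was at 0.41 ± 0.34. In these 3 genes both MT libraries lay above both control libraries, with no call. CYCB1;2 overlapped with control, at 8.90 and 9.18 CPM with MT and 8.57 and 10.4 CPM in control (-0.07 ± 0.17, 95% interval -0.47 to 0.33). CDC20.1 was at 0.10 ± 0.12 (95% interval -0.16 to 0.37). Among kinases, CDKB1;1 was split, at 2.55 and 4.31 CPM with MT and 4.14 and 4.47 CPM in control (-0.33 ± 0.28), and without MT replicate 1 its value was 0. AUR1 read 3.78 and 2.87 CPM with MT and 3.68 and 4.53 CPM in control (-0.30 ± 0.23), with overlapping groups.

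The comparison of MT with IAA does not use the control libraries in its contrast, although all 6 libraries gave the estimate of the spread, and the doses differ. Levels were lower with MT in 33 of 35 members, with a median log2 difference of -0.39, and edgeR called 0, where 0.0188% of all genes were called (0.0047% higher and 0.0141% lower), and 48.4% of all genes were above 0. At an unadjusted p under 0.05 there were 15 members, all lower with MT, where 4.53% of all genes were lower and 5.98% higher by that rule. DESeq2 called 3 members, CDC20.1 (adjusted p = 0.0292), CYCB1;2 (adjusted p = 0.0349) and MAP65-3 (adjusted p = 0.0349), where it called 1.3% of the genes to which it gave an adjusted p. Both MT libraries lay below both IAA libraries in 21 members, where 20.4% of all genes did, and above them in 0, where 19.8% did. Without IAA replicate 2 the median over members was -0.21 and 7 members were at an unadjusted p under 0.05, where 6.51% of all genes were. Without MT replicate 1 that number was 9, where 6.07% of all genes were.

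AUR1 (AT4G32830) had the largest difference, at 3.78 and 2.87 CPM with MT and 5.17 and 6.85 CPM with IAA (-0.85 ± 0.23, adjusted p = 0.305). CYCA2;4 read 3.42 and 3.42 CPM with MT and 4.66 and 6.89 CPM with IAA (-0.75 ± 0.23, adjusted p = 0.335). CYCB1;2 read 8.90 and 9.18 CPM with MT and 12.5 and 17.4 CPM with IAA (-0.72 ± 0.17, adjusted p = 0.25). In each of these 3 genes the groups did not overlap. MAP65-3 read 6.72 and 8.48 CPM with MT and 11.1 and 12.7 CPM with IAA (-0.65 ± 0.15, adjusted p = 0.232), and CDC20.1 read 18.5 and 15.6 CPM with MT and 23.1 and 25.9 CPM with IAA (-0.52 ± 0.12, adjusted p = 0.232). CDKB1;1 and AUR3 were at -0.67 ± 0.28 and -0.55 ± 0.28. Both comparisons against control use the same 2 control libraries, and IAA against control and MT against IAA use the same 2 IAA libraries, so none of the 3 is independent of the others.

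**Figure D4:**
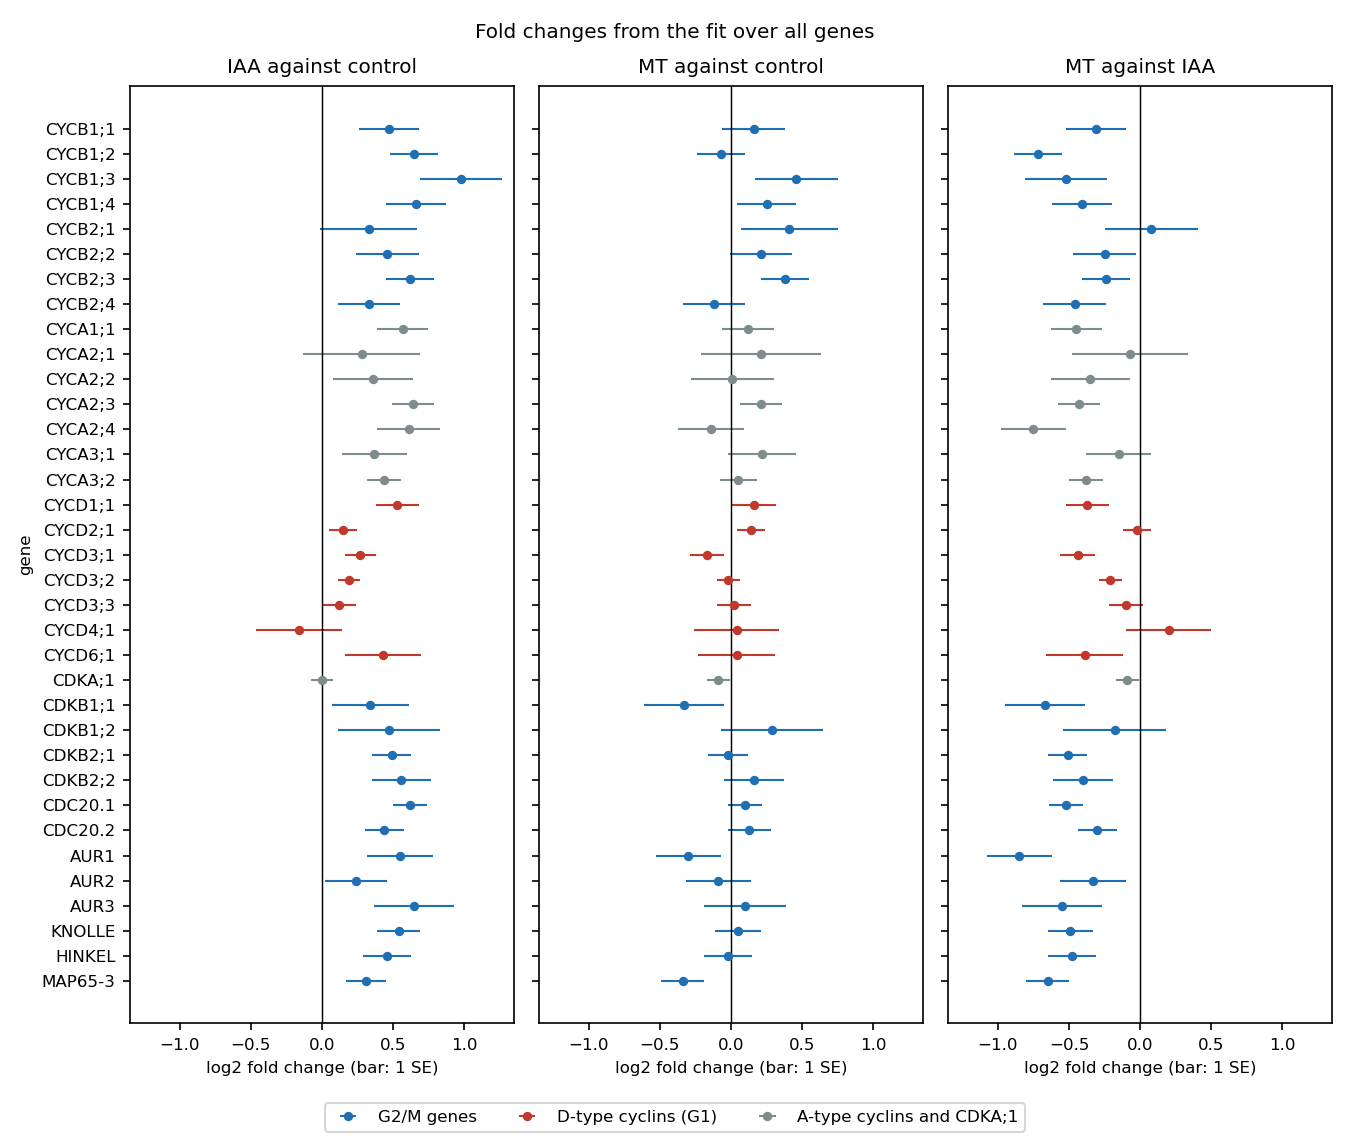
Points are log2 fold changes of the 35 genes, down the page, in 3 panels for IAA against control, MT against control and MT against IAA, and bars are 1 SE. Blue marks the G2/M genes, red the D-type cyclins and grey the A-type cyclins and CDKA;1. All 20 blue points lie right of 0 in the first panel and 19 lie left of 0 in the third.

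G1 and G2/M members were set against each other by their medians, as a description. With IAA against control the median log2 fold change was 0.48 over the 20 G2/M genes and 0.19 over the 7 D-type cyclins, a gap of 0.29, while the median of all genes was 0.01. All 20 G2/M genes lay above the D-type median and 9 lay above the highest D-type cyclin. Leaving out single libraries gave medians of 0.34 to 0.67 for G2/M genes and 0.13 to 0.25 for D-type cyclins. Without IAA replicate 2 these medians were 0.34 and 0.13. Relative to the control mean, IAA replicate 1 stood at 0.35 for the median G2/M gene and 0.14 for the median D-type cyclin. IAA replicate 2 stood at 0.68 and 0.26, so the gap differed between the 2 IAA libraries. With MT against control the medians were 0.10 and 0.04, a gap of 0.06. Without MT replicate 2 both were -0.02, and over the fits that left out 1 library the G2/M median ran from -0.02 to 0.10. Despite this small gap, 8 of the 20 G2/M genes lay above the highest D-type cyclin with MT against control, and 3 below the lowest. The count of 9 with IAA is therefore not particular to that comparison. With MT against IAA the medians were -0.47 and -0.21, a gap of -0.26, and without IAA replicate 2 they were -0.22 and -0.10.

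Among the D-type cyclins, whose 95% intervals overlapped, CYCD1;1 had the largest estimate with IAA, at 18.1 and 25.9 CPM with IAA and 15.2 and 15.2 CPM in control (0.53 ± 0.15, adjusted p = 0.243). CYCD6;1, known for its part in the divisions that form root ground tissue, was at 0.43 ± 0.27 on 107 to 279 reads per library. CYCD3;1, a target of cytokinin and sugar signals, read 15.9 and 15.4 CPM with MT, 19.2 and 23.2 CPM with IAA, and 16.8 and 18.3 CPM in control. Its log2 fold change with MT against IAA was -0.44 ± 0.12 (adjusted p = 0.302), and it had the lowest p of the D-type cyclins in that comparison. CYCD3;2, CYCD2;1 and CYCD3;3 were at 0.19 ± 0.08, 0.15 ± 0.10 and 0.12 ± 0.12 with IAA against control, and CYCD4;1 was at -0.16 ± 0.30 (95% interval -0.84 to 0.53).

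Further lists cover other genes of the pathway, and edgeR called 0 of their genes in each of the 3 comparisons. DESeq2 called SMR1 with MT against control, where it called 3.87% of all genes. With MT against IAA it called TSO2, where it called 1.3% of the genes to which it gave an adjusted p. At an unadjusted p under 0.05 with IAA against control there were 6 DNA replication genes, 6 regulators and 2 genes of the mitotic apparatus, all higher. There were also 2 CDK inhibitors, both lower. By that rule 6.71% of all genes were higher and 4.27% lower. Among 14 DNA replication genes, all 14 were above 0 with IAA against control, with a median log2 fold change of 0.27. With MT against IAA all 14 were below 0, with a median of -0.28. Of all genes 53.6% were above 0 with IAA against control and 48.4% with MT against IAA. Both comparisons use the same 2 IAA libraries, and IAA replicate 2 was the highest library for 13 of the 14. With MT against control 6 were above and 8 below 0, with a median of -0.07. TSO2, a subunit of ribonucleotide reductase, had the lowest p of that list in both, at 0.29 ± 0.08 with IAA against control and -0.38 ± 0.08 with MT against IAA. Of 21 cell cycle regulators 20 were above 0 with IAA against control (median 0.25). MYB3R4, an activator of G2/M genes, was at 0.37 ± 0.16 with IAA and -0.14 ± 0.16 with MT against control, and MYB3R3, a repressor of them, was at 0.37 ± 0.12 and 0.25 ± 0.12. WEE1, a kinase that inhibits CDKs, had the largest value of the regulators with IAA, at 3.28 and 5.19 CPM with IAA and 2.68 and 2.34 CPM in control (0.75 ± 0.26). In the mitotic apparatus list 10 of 11 were above 0 with IAA (median 0.15), led by TPX2, a spindle assembly protein, at 0.71 ± 0.22, and by the checkpoint gene MAD2, at 0.65 ± 0.18. The 12 CDK inhibitor genes were evenly divided with IAA, 6 above and 6 below 0, with a median of 0.05. SMR1 averaged 21.1 ± 0.348 CPM with MT, 22.1 ± 2.86 CPM with IAA and 28.7 ± 0.349 CPM in control (SD, n = 2 libraries each, with edgeR adjusted p = 0.0933 for MT and 0.223 for IAA).

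Markers of tissues that hold dividing cells are given beside these values. Their part in the result was not tested. Of all genes 53.6% were above 0 with IAA against control and 49.3% with MT against control. The stomatal lineage, a dividing cell population of the leaf epidermis, had 7 of 8 markers above 0 with IAA against control (median 0.35), and its summed level was 76.0 and 76.3 CPM with MT, 91.1 and 82.3 CPM with IAA, and 79.6 and 71.8 CPM in control. SPCH, which starts the lineage, read 8.90 and 8.88 CPM with MT, 10.5 and 11.4 CPM with IAA, and 7.91 and 7.84 CPM in control (0.47 ± 0.12 for IAA against control, adjusted p = 0.165). Of 5 root meristem markers 4 were above 0 with MT against control (median 0.43) and 5 with IAA against control (median 0.24). Their sum was 54.6 and 54.6 CPM with MT, 60.3 and 62.8 CPM with IAA, and 56.2 and 53.3 CPM in control. The MT median is the value of WOX5 (SE 0.53), which had 19 to 41 reads per library and overlapping groups. SHR and SCR, with more reads, were at -0.15 ± 0.13 and 0.01 ± 0.08 with MT against control. PLT1 and PLT2, on 9 to 54 reads per library, were at 1.46 ± 0.70 and 1.21 ± 0.79. PLT1, a root stem cell regulator, read 0.587 and 0.823 CPM with MT, 0.370 and 1.21 CPM with IAA, and 0.172 and 0.337 CPM in control. Of 4 lateral root markers 3 were tested, with 3 above 0 for MT against control (median 0.47) and 2 for IAA against control (median 0.64). Both medians are the value of LBD29, which had 3 to 19 reads per library (SE 0.90 for MT and 0.87 for IAA). PUCHI had 35 and 6 reads with MT, 8 and 49 with IAA, and 5 and 6 in control. The 4 markers summed to 2.79 and 1.75 CPM with MT, 1.48 and 2.55 CPM with IAA, and 1.25 and 1.81 CPM in control. GATA23, which was not tested, had 6 and 2 reads with MT, 2 and 2 with IAA, and 0 in both control libraries. The root endodermis markers, of cells that have left the cycle, ran in another order, at summed levels of 49.5 and 26.4 CPM with MT, 23.3 and 25.5 CPM with IAA, and 12.7 and 19.8 CPM in control. CASP1, of the Casparian strip, was the 1 marker that edgeR called, and rose with MT against control (1.95 ± 0.39, adjusted p = 0.0479). Root markers and leaf markers were both read in all 6 libraries, with leaf photosynthesis genes summing to between 31457 and 33734 CPM.

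**Figure D5:**
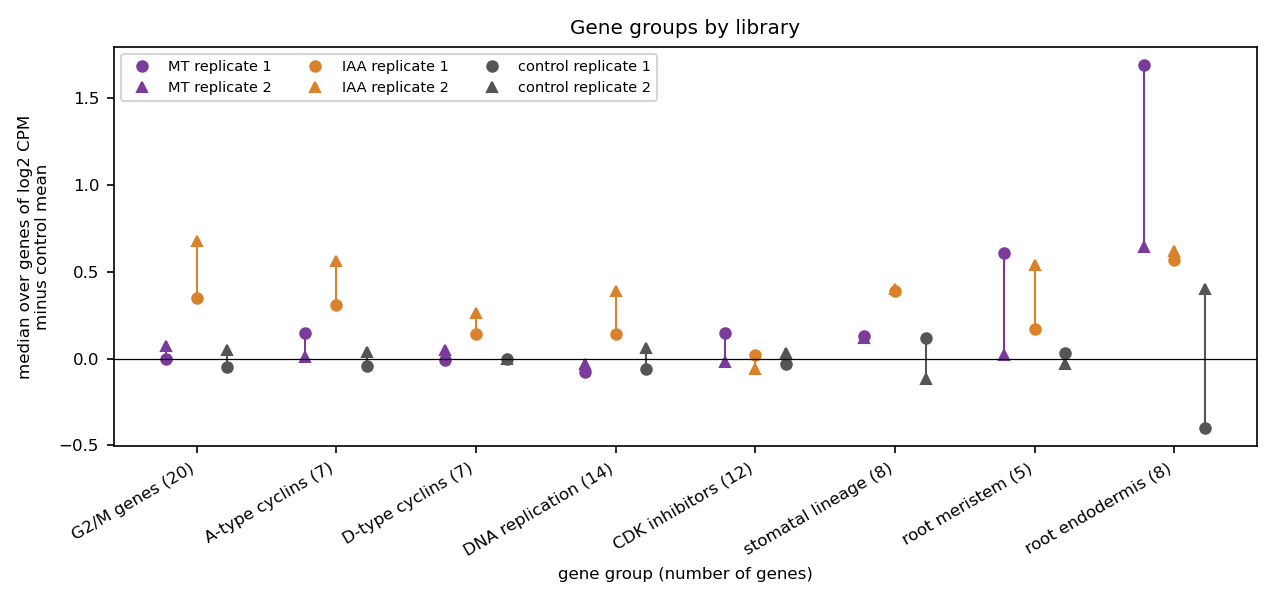
The y axis is the median over the genes of each group of log2 CPM minus the control mean, for each library (circles for replicate 1, triangles for replicate 2, joined by a line). G2/M genes stand at 0.35 and 0.68 in the IAA libraries and between -0.05 and 0.07 in the other 4, whereas root endodermis markers are highest in MT replicate 1, at 1.69.

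Total counts ran from 40087221 to 65558371 per library. Plastid genes took 0.285% of counts in MT replicate 1, against 0.0196% to 0.0244% in the other 5 libraries, and the first principal component ran between control replicate 1 (-47.9) and MT replicate 1 (47.7). The member with the fewest reads had 34 in a library, so all 35 lay above the limit that a count of 0 allows, which was 0.0458 to 0.0748 CPM (3 counts).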

How the data were processed

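The authors deposited raw counts per gene for 6 libraries in a single table. Tools named in the submitters' processing notes are TopHat2 2.0.12, Bowtie2 2.2.3, DESeq and HTSeq 0.6.1. Genome build, annotation and strand setting: not given in the sources used here. Of 27416 locus codes, 26719 matched TAIR10.1, as did all 35 members.

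The filterByExpr filter left 21267 genes, which were scaled by TMM factors. edgeR 4.0.16 (R 4.3.3, glmQLFit and glmQLFTest) was fitted to all 6 libraries, with Benjamini-Hochberg adjustment over all genes and a threshold of 0.05. CPM use TMM-scaled library sizes. The SE of a log2 fold change is its size divided by the square root of the F statistic. The biological coefficient of variation was 0.123 (3 residual degrees of freedom). Exon lengths, promoters and coding sequences came from RefSeq's TAIR10.1 annotation and genome. Protein motifs were not analysed here.

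Replicates differed by a chi-square per degree of freedom of 18.2 for MT, 14.5 for IAA and 9.16 for control, so no pair was treated as 1 library deposited in duplicate. The 95% intervals of log2 fold changes come from the edgeR fit, and floors cover counting error only. Named members are, per comparison, the 6 with the largest fold changes among those with a mean of at least 1 CPM and the one with the lowest p. For the other lists it is the gene with the lowest p. Further genes named beside their class or list were chosen after their values were seen. Members and lists were chosen with earlier results of these data known. Alternatives were RLE and upper-quartile factors, no filter, DESeq2 1.42.0, fits of 2 groups, a replicate block, and leaving out each library.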

Additional observations from a re-analysis of the deposited data

How the results depend on the processing

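For IAA against control the number of genes called was 268 with no filter, 475 with DESeq2 and 81 when only these 2 groups were fitted, against 149. The members called were 1 with no filter and 2 with DESeq2, against 0. For MT against control DESeq2 called 823 genes, against 403. For MT against IAA 13 genes were called with no filter and 255 with DESeq2, against 4, and DESeq2 called 3 members, against 0. Leaving out 1 library gave 17 to 109 genes for IAA against control (17 when control replicate 1 was left out, 21 for IAA replicate 2, 48 for IAA replicate 1, 84 for MT replicate 2). It gave 112 to 447 genes for MT against control (112 without control replicate 1, 172 without MT replicate 1) and 0 to 55 for MT against IAA (0 without IAA replicate 1, 7 without IAA replicate 2, 55 without MT replicate 2), and 0 members in every case. These fits have fewer samples, and the cause was not tested. The medians over G2/M members then ran from 0.34 to 0.67 for IAA against control, from -0.02 to 0.10 for MT against control and from -0.66 to -0.22 for MT against IAA. Those over D-type cyclins ran from 0.13 to 0.25, from -0.02 to 0.05 for MT against control, and from -0.26 to -0.10 for MT against IAA. CDKB1;1 with MT against control ran from -0.77 to 0, with its sign turned at 0 without MT replicate 1. Of the values of named members under alternatives, 233 kept direction and side of the threshold, 6 moved past it with DESeq2 or no filter, and 1 turned.

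The replicate numbers of the titles did not pair the libraries: the correlation of replicate deviations was 0.03 for IAA and control, -0.15 for MT and control, and 0.01 for MT and IAA. With a replicate block, 137 genes were called for IAA against control, 351 for MT against control and 5 for MT against IAA, with 0 members in each. The members with the fewest reads have the widest errors, as CYCA2;1 shows (SE 0.41 for IAA against control).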

Other observations

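STM, which keeps shoot meristem cells undifferentiated, read 2.97 and 4.31 CPM with MT, 3.35 and 3.87 CPM with IAA, and 6.19 and 5.35 CPM in control, with both treated groups below control (log2 fold change -0.67 ± 0.23 for MT, adjusted p = 0.246, and -0.68 ± 0.23 for IAA, adjusted p = 0.309). KNAT1, a related homeobox gene, read 19.4 and 23.9 CPM with MT, 21.7 and 23.1 CPM with IAA, and 27.8 and 24.5 CPM in control. Of the 5 tested markers of shoot meristem and young leaf, edgeR and DESeq2 each called 0. At an unadjusted p under 0.05, 1 was lower for IAA and 2 for MT, where 4.27% and 4.58% of all genes were lower. WUS and CLV3 had too few reads to be tested. ANT, a gene of organ growth, read 15.6 and 20.8 CPM with MT, 19.0 and 28.2 CPM with IAA, and 21.4 and 21.2 CPM in control, and was highest in IAA replicate 2.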
